A study of Mus musculus with 14 samples.

Results

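Livers of mice with spontaneous autoimmune hepatitis (AIH) were compared with livers of healthy littermates across all genes. The comparison rests on 9 of the 14 libraries of the study, taken by their phenotype label: 5 AIH livers and 4 control livers, with 1 library per animal. AIH mice had the genotype Tet2fl/fl vav cre+ and controls were Tet2fl/fl cre-, so both groups carried the floxed Tet2 allele. All 9 mice were untreated and 20 weeks old. Vav-cre acts in blood cells, so a floxed gene is not removed from hepatocytes by it. Every AIH liver was cre+ and every control cre-, so hepatitis and the deletion cannot be told apart here. The other 5 libraries, from symptom-free Tet2fl/fl vav cre+ mice of the same age, shared the estimate of the spread and are not described here.

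Most RNA of a healthy liver comes from hepatocytes, which oxidize fatty acids, make bile acids and secrete plasma proteins. In autoimmune hepatitis immune cells enter the tissue around the portal tracts and attack hepatocytes. Hepatocytes are known to answer inflammation by making acute phase proteins, and stellate cells, which store vitamin A, by depositing matrix. The protein made from Tet2 oxidizes methylated cytosines, a step toward their removal.

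Tet2 (ENSMUSG00000040943, GRCm38 chromosome 3, 133463679 to 133545139, minus strand) was checked first. It measured 8.53, 11.98, 11.6 and 10.8 CPM (counts relative to the library's size, scaled by TMM factors, which correct for composition) in controls 1 to 4, and 7.88, 7.34, 14.2, 7.55 and 15.4 in AIH 1 to 5. AIH 1, 2 and 4 were below all controls and AIH 3 and 5 above all of them. Its log2 fold change of -0.03 ± 0.27 (SE) did not pass the test (adjusted p = 0.946). Counts cover the whole gene and blood cells give little of the RNA of a liver, so this says little about the deletion.

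The libraries held 17.7 to 18.9 M gene counts (M, mega) in controls and 17.3 to 18.2 M in AIH. Genes with at least 1 count numbered 19048 ± 166 in controls (SD, n = 4) and 20089 ± 356 in AIH (SD, n = 5), without overlap. The exact permutation p of 0.0159 (two-sided) is the smallest these group sizes allow, and it was 0.127 after adjustment over 8 library measures. Hepatocyte markers were high in both groups, and Alb, Ttr, Apoa1 and Serpina1a did not pass the test. Xist and Y-linked counts gave 2 female and 2 male controls (males 1 and 4), and 4 female and 1 male AIH livers (male 4). Titles number the AIH libraries 11 to 15 and the controls 1, 3, 4 and 7; if these numbers are an order of work, it cannot be told apart from hepatitis.

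Markers of other cell types moved with the groups and stand beside everything that follows. The list of T and natural killer cell genes summed to 16.7 to 35.3 CPM in controls and 59.6 to 188 in AIH, with 20 of 23 members higher. Monocyte and macrophage genes summed to 720.2 to 1348 CPM and 1923 to 5848, with 19 of 22 higher. B and plasma cell genes summed to 280.3 to 393 CPM and 526.5 to 5458, with 17 of 20 higher. Granulocyte genes summed to 6.66 to 49.7 CPM and 44.6 to 3761, with 16 of 16 higher, and Ly6g and Ctsg had no count in any control. Members that are scarce in controls could pass the low-count filter only through libraries where they are high, so the counts of this and other lists of scarce genes are partly set by it. For the granulocyte sum AIH 4, with 44.6 CPM, lay inside the control range. In 12 of the 16 tested members every AIH liver, AIH 4 included, was above every control, against 13.2% of all genes. This count is also partly set by the filter and by controls near 0. Markers of pancreas (apart from Cela1) and of skeletal muscle were at or near 0 in both groups. In bulk tissue fewer cells of a type and less RNA per cell cannot be told apart, and the part of these cell shifts in the results below was not tested.

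Across the genome more genes were higher than lower in AIH livers. Of 14638 genes tested, 3174 passed an adjusted p of 0.05 in edgeR's quasi-likelihood test, which is 21.7%. In AIH 2284 genes were higher (15.6%) and 890 were lower (6.08%). The groups did not overlap in 19.8% of genes, with 13.2% higher and 6.61% lower. Rises were larger than falls: 1882 genes rose and 204 fell by over 2-fold, and 484 rose and 18 fell by over 8-fold. Of the higher genes, 114 were under 0.1 CPM in controls and 680 at 0.1 to 1 CPM. Many of these passed the low-count filter only through other libraries and had little room to fall. The excess of rises and their larger size are thus partly set by the filter. With library totals in place of TMM the median of all genes moved from -0.01 to 0.14 on the log2 scale, and 2675 genes were higher and 304 lower. The count of lower genes was 573 without control 4, 520 without AIH 2 and 575 without AIH 3.

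Higher and lower genes differed in their level in healthy liver, a level that enters both the grouping and the fold. Between 1 and 10 CPM in controls, 1007 genes were higher and 83 lower of 4796. Between 10 and 100 CPM, 436 were higher and 469 lower of 6311. Between 100 and 1000 CPM, 43 were higher and 304 lower of 1327 (22.9% lower, median log2 fold change -0.36). Of the 130 genes at 1000 CPM or more, 4 were higher and 22 lower. The 200 most abundant control genes held 49.7% ± 2.06 of counts in controls (SD, n = 4) and 47.2% ± 3.1 in AIH (SD, n = 5). The 118 genes under 0.1 CPM in controls passed the low-count filter through other libraries and so had to differ, and 114 of them were higher. The same holds for many of the 1956 genes of 0.1 to 1 CPM (680 higher, 12 lower), so neither count is support.

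**Figure D1:**
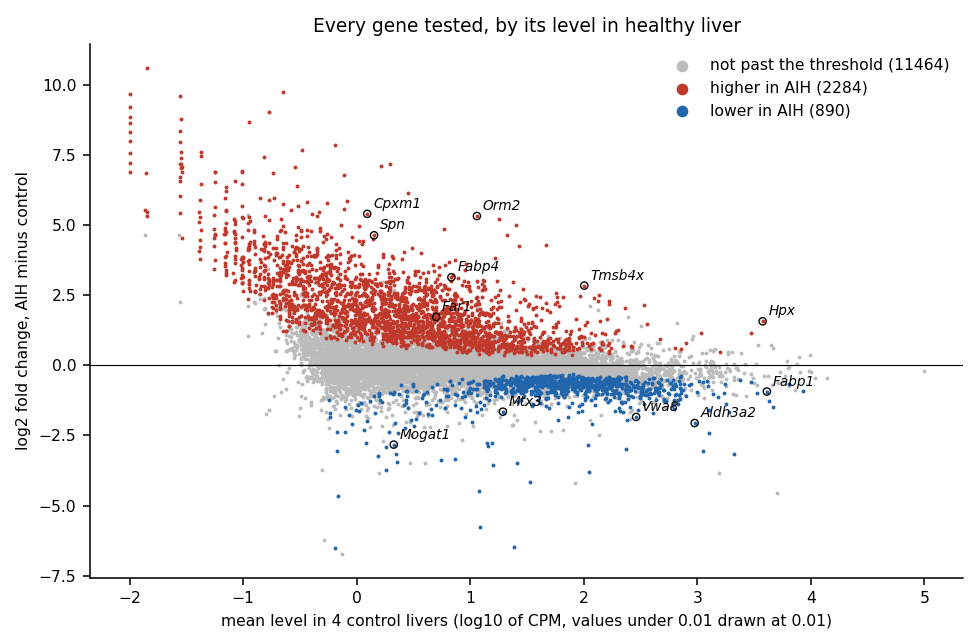
Every gene tested, with the mean control level on the horizontal axis (log10 of CPM) and the log2 fold change of AIH against control on the vertical axis. Red points are the 2284 higher genes, blue points the 890 lower genes, and the blue points lie mostly to the right, among genes of high control level.

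Shares are given by kind of transcript, beside 15.6% higher and 6.08% lower over all genes, and the difference between kinds was not tested. Of 12923 protein-coding genes, 2147 were higher (16.6%) and 827 lower (6.4%). Among 194 antisense transcripts 5 were higher (2.58%) and 17 lower (8.76%), with a median of -0.33. The strand setting of the counting is not given in the sources used here, so reads of an antisense transcript and of its partner cannot be told apart. Of 218 lincRNAs, 16 were higher (7.34%) and 6 lower (2.75%). The 329 Zfp zinc finger genes had 7 higher and 6 lower members, and the 18 histone genes tested had no member past the threshold.

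The AIH livers were not equally far from the controls. Of the 2284 higher genes, 98.3%, 98.0%, 94.8%, 89.1% and 92.8% were above the highest control in AIH 1 to 5. Of the 890 lower genes, 90.2%, 96.4%, 96.7%, 82.4% and 91.9% were below the lowest control. AIH 4, the male, had the smallest shares in both directions, and the smallest median differences from the control mean (0.99 among higher and -0.49 among lower genes on the log2 scale). AIH 2 had the largest (1.72 and -0.96). Over 12345 genes the SD of log2 CPM had a median of 0.34 in AIH and 0.25 in controls, and 68.4% of genes varied more in AIH.

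Genes were grouped in 67 lists of pathways and cell types, with 1595 tested members, of which 462 were higher and 129 lower. All called members were higher in 28 lists and lower in 14 lists, 21 lists held both, and 4 had none. The plot of the lists gives each list's count. The shares over all genes, against which these counts are to be read, were 15.6% higher and 6.08% lower. Most list members named below were picked among genes whose groups do not overlap, so their separation was set by the choice.

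**Figure D2:**
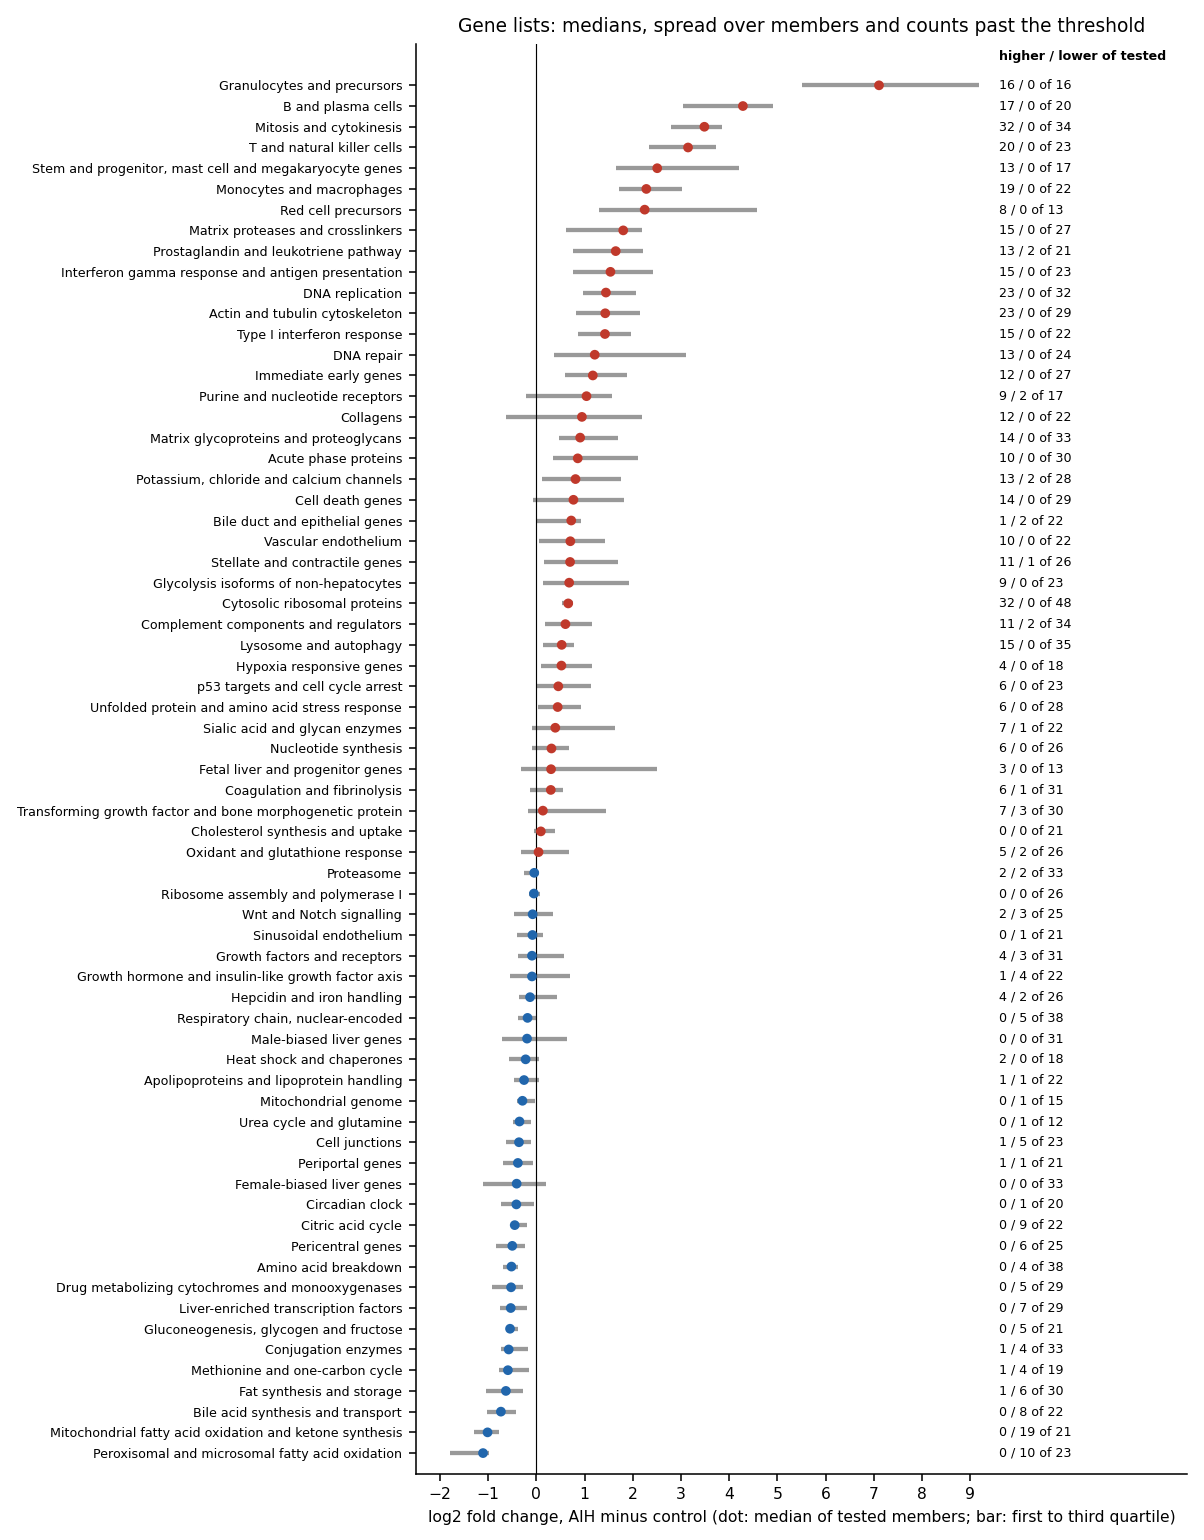
The 67 lists ordered by the median log2 fold change of AIH against control (dot), with the quartiles of the members (bar) and the number higher and lower of those tested. Mitochondrial fatty acid oxidation (19 of 21 lower) and the peroxisomal list (10 of 23 lower) lie at the bottom, and mitosis (32 of 34 higher) lies near the top with the blood cell lists.

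Genes of cell division rose together. In the list of mitosis and cytokinesis 32 of 34 members were higher and none lower, with a median of 3.49 (all genes: -0.01). Over all genes 15.6% were higher and 6.08% lower. Members scarce in controls, such as Kif23 and Uhrf1 below, may have passed the low-count filter only through AIH libraries. The counts and medians of this list and of the replication list can be partly set by that. The median was 3.39 in females and 3.37 in males, and the count was 32 when any 1 of the 9 libraries was left out. Summed over the list, controls held 23.2 to 40.9 CPM and AIH livers 214.8 to 349.4, with no overlap. Mki67, which coats mitotic chromosomes (chromosome 7, 135689784 to 135716361), measured 2.46, 2.37, 3.6 and 1.96 CPM in controls 1 to 4 and 42.2, 57.1, 26.6, 42.0 and 49.1 in AIH 1 to 5. All AIH livers were far above all controls, AIH 3 least (4.06 ± 0.39, adjusted p = 1.61e-05). Kif23, a kinesin of the cleavage furrow, measured 0.5261, 0.396, 0.654 and 0.447 CPM and 5.95, 6.76, 5.59, 5.15 and 4.9. The 5 AIH livers lay close to each other (3.47 ± 0.26, adjusted p = 7.03e-06). Among all 32 kinesins tested, 14 were higher and 3 lower.

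Of 32 genes that copy DNA 23 were higher and none lower, with a median of 1.44, and of 24 DNA repair genes 13 were higher. Mcm6, a subunit of the helicase that opens replication origins (chromosome 1, 128331590 to 128359664), measured 5.61, 3.00, 3.81 and 3.52 CPM in controls 1 to 4 and 29.2, 36.6, 23.2, 31.6 and 21.1 in AIH 1 to 5. The groups were well apart (2.83 ± 0.28, adjusted p = 1.97e-05). Uhrf1, which guides maintenance of DNA methylation at the fork, measured 0.5261, 0.0565, 0.708 and 0.503 CPM and 8.02, 10.5, 5.77, 10.7 and 7.12. Its fold change of 4.21 ± 0.44 had an adjusted p of 2.25e-05. Hmgb2, a chromatin protein of dividing cells, measured 0.877, 1.02, 0.599 and 0.894 CPM and 11.8, 17.5, 19.2, 6.6 and 6.16. AIH 4 and 5 had the lowest AIH values and were still above every control (3.84 ± 0.43, adjusted p = 3.51e-05). Of 26 nucleotide synthesis genes 6 were higher. Rrm1, the large subunit of ribonucleotide reductase, rose by 1.25 ± 0.14 (adjusted p = 3.74e-05), from 9.97 to 12.6 CPM in controls to 21.3 to 31.3 in AIH.

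The promoters of such genes are known to carry shared short motifs, and those of 4 genes from these lists and of 1 interferon-induced gene are shown, because their letters can be read beside the rise. Each is the 250 bases before the start of the gene in RefSeq (GRCm38.p6), read 5′ to 3′ on the gene's strand. Capitals mark matches, on either strand, of the cell cycle genes homology region (CHR; TTTGAA) and the CCAAT box (CCAAT) in the first 3, of the 2 E2F forms (TTTCGCGC and TTTGGCGC) and the CCAAT box in the fourth, and of the interferon response element (TTTC, any 2 bases, TTTC) in the last. In Mcm6 an E2F match of each form overlap, and in Oas1a 2 interferon matches overlap.
Top2a, topoisomerase of mitotic chromosomes, chr11:99024190-99024439, minus strand: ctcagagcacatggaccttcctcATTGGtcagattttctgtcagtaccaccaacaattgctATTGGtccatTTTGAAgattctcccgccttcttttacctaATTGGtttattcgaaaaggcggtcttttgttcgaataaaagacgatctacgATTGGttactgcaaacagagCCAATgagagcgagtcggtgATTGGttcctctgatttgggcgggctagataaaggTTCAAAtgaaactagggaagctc
Mki67, chr7:135716380-135716629, minus strand: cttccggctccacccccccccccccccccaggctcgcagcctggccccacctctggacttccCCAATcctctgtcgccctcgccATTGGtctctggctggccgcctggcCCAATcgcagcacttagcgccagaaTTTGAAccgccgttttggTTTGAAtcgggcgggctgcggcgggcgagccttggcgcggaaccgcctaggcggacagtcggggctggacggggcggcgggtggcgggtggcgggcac
Hmgb2, chr8:57511593-57511842, plus strand: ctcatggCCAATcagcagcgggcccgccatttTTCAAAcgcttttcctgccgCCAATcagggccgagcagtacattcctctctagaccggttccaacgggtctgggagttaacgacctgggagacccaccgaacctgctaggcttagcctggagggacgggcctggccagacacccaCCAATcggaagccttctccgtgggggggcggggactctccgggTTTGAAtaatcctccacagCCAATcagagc
Mcm6, chr1:128359706-128359955, minus strand: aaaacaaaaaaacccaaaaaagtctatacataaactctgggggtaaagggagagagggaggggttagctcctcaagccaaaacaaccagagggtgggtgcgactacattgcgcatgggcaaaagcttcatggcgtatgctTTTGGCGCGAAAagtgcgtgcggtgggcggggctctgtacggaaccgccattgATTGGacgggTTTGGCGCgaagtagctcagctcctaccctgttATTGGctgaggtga
Oas1a, chr5:120907526-120907775, minus strand: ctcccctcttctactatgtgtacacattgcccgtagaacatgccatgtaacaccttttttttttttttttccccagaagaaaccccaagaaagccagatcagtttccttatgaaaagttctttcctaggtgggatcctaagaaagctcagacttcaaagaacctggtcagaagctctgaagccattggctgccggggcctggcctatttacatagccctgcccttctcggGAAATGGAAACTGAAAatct

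Windows of this length were at hand for 10609 of the 14638 genes tested. A gene counts as holding a motif if any of its windows does. The HNF1 site, direct repeat 1, the STAT site, the ETS site of PU.1 and the TATA box were also searched. Their shares are not given here. Those given are of motifs already known for the lists named. In the mitosis list 10 of 28 genes (35.7%) held the CHR and 22 (78.6%) the CCAAT box. Over all 27025 genes with a window the shares were 18.3% and 37.5%, and over the tested genes that did not pass 12.9% and 40.8%. Both were present in 9 of 28 (32.1%), against 6.45% of all genes and 4.87% of those that did not pass. Over all higher genes the CHR share was 16.1%. In the replication list 4 of 26 (15.4%) held the first E2F form and 3 the second, against 0.534% and 0.983% of genes that did not pass. The interferon element was found in 7 of 15 type I interferon genes (46.7%), in 6.12% of higher and 2.38% of lower genes, in 2.96% of those that did not pass and in 3.46% of all genes. Matches are letters in a window and show no binding. Oas1a, a sensor of double-stranded RNA, measured 1.52, 2.04, 2.72 and 1.51 CPM in controls 1 to 4 and 8.84, 26.3, 6.93, 6.16 and 13.1 in AIH 1 to 5. AIH 2 was highest and all AIH livers exceeded all controls (2.65 ± 0.47, adjusted p = 0.00121).

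Among the largest gains in CPM were a heme carrier, a surface protein and actin genes. Hpx, hemopexin, which binds free heme in plasma (chromosome 7, 105591613 to 105600137), measured 3179, 4125, 3971 and 3790.3 CPM in controls 1 to 4 and 9641, 13116, 19480, 5488 and 8504 in AIH 1 to 5. AIH 3 was highest and AIH 4 nearest the controls, with no overlap (1.58 ± 0.31, adjusted p = 0.00239). Ly6e, an interferon-induced surface protein anchored by lipid, measured 219.7, 196, 333 and 178 CPM and 802, 1426, 1135, 597 and 854. Every AIH liver was above every control (2.06 ± 0.27, adjusted p = 0.00012). Actb, cytoplasmic actin and often used as a reference gene, measured 354, 359, 369.7 and 358 CPM in controls, which were nearly equal, and 706.5, 1477, 1168, 896 and 824 in AIH (1.49 ± 0.31, adjusted p = 0.00309). Tmsb4x, the thymosin that holds actin monomers, rose by 2.85 ± 0.40 (adjusted p = 0.000217), and AIH 2 with 1619 CPM stood apart from 403 to 626 in the other AIH livers. In the actin and tubulin list 23 of 29 members were higher and none lower, with a median of 1.43 that was 1.41 in females and 1.51 in males.

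Acute phase genes rose unevenly, and AIH 4 stayed out of some rises. Of 30 members 10 were higher and none lower, with 6 higher once sex was a term. Orm2, alpha-1-acid glycoprotein, measured 2.81, 10.5, 27.1 and 5.47 CPM in controls 1 to 4 and 194, 791, 1108, 6.55 and 218.5 in AIH 1 to 5. AIH 4 lay inside the control range and the other AIH livers far above it (5.34 ± 1.14, adjusted p = 0.004; 6.21 without control 3 and 4.70 without AIH 3). With sex as a term and only the 9 libraries its adjusted p was 0.0575. Orm2 has close copies that may share its reads.

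Genes of clotting moved in few members. Of 31 clotting and fibrinolysis genes 6 were higher and 1 lower, and 12 were higher with library totals. Over all genes 15.6% were higher and 6.08% lower, and with library totals 2675 of 14638 were higher. F13a1, the clot-linking transglutaminase of macrophages and platelets, measured 0.351, 0.452, 0.763 and 0.335 CPM in controls 1 to 4 and 19.2, 10.6, 37.5, 0.839 and 4.5 in AIH 1 to 5. AIH 4 was barely above control 3 (4.91 ± 0.97, adjusted p = 0.00238; 4.17 without AIH 3).

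In the complement list 11 of 34 members were higher and 2 lower. C1qa, a chain of the C1q recognition molecule made by macrophages, measured 50.5, 59.9, 73.3 and 48.5 CPM and 196, 602, 228, 147 and 234 (2.28 ± 0.35, adjusted p = 0.000387). Each AIH liver exceeded each control and AIH 2 stood apart. Serping1, the C1 inhibitor, rose by 0.60 ± 0.15 (adjusted p = 0.0103), from 686 to 736 CPM in controls to 887 to 1351 in AIH; with no low-count filter its adjusted p was 0.0518, and with sex as a term in the 9 libraries 0.0842. C1rl, a C1r-like protease, fell by 0.51 ± 0.14 (adjusted p = 0.0176), a call that ended with library totals (adjusted p = 0.0946).

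Fatty acid oxidation genes fell. Of 21 genes of mitochondrial oxidation and ketone synthesis 19 were lower and none higher, with a median of -1.01. Without control 2, or with library totals, 12 were lower. Control livers were themselves in pairs: controls 2 and 4 summed to 18350 and 17390 CPM, controls 1 and 3 to 10070 and 9668, and AIH livers to 4917 to 7478. The log2 ratio of Dbp to Arntl, clock genes of opposite phase, was -4.55 and -2.87 in controls 2 and 4, 7.62 and 6.84 in controls 1 and 3, and -1.86 to 5.76 in AIH. With this ratio as a term 19 members were lower, with a median of -0.91. Within females the median was -1.16 with 5 lower, and in males -0.91 with none past the threshold.

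Acadm, the medium-chain acyl-CoA dehydrogenase (chromosome 3, 153922357 to 153944632), measured 401, 828, 411 and 777 CPM in controls 1 to 4 and 298, 176, 218, 217 and 204 in AIH 1 to 5. Every AIH liver was below every control, and the distance was shortest from AIH 1 to controls 1 and 3 (-1.44 ± 0.32, adjusted p = 0.00522). Cpt1a, the carnitine transferase that admits long-chain fatty acids to mitochondria, measured 721, 937, 598 and 915 CPM and 554, 186, 385, 379 and 376. AIH 1 was close to control 3 and AIH 2 lowest (-1.08 ± 0.30, adjusted p = 0.019). Eci1, an isomerase for unsaturated acyl chains, measured 142, 207, 109 and 194 CPM and 83.2, 61.6, 52.5, 78.7 and 58.0. No AIH liver reached the control range (-1.29 ± 0.25, adjusted p = 0.00199). Hadh, which oxidizes 3-hydroxyacyl-CoA, measured 454, 494, 535 and 408 CPM and 279, 256, 271, 263 and 307. Here both groups were narrow and apart (-0.78 ± 0.17, adjusted p = 0.00482).

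Peroxisomal and microsomal oxidation had 10 of 23 members lower and none higher, with a median of -1.11, and 6 lower without control 2 or without control 4. Aldh3a2, the fatty aldehyde dehydrogenase (chromosome 11, 61223417 to 61267464), measured 717, 988, 924 and 1168 CPM in controls 1 to 4 and 227, 169, 142, 337 and 267 in AIH 1 to 5. The highest AIH liver was under the lowest control by a wide margin (-2.05 ± 0.35, adjusted p = 0.000974). Decr2, a peroxisomal dienoyl-CoA reductase, measured 315, 331, 314 and 288 CPM and 184, 97.6, 128, 189.8 and 137 (-1.08 ± 0.21, adjusted p = 0.00227). Controls were nearly level and each AIH liver was below them. Acot4, a peroxisomal thioesterase, fell by 1.96 ± 0.44 (adjusted p = 0.00562), and AIH 4 was lowest with 31.4 CPM against 164 to 303 in controls. Cyp4a14, a fatty acid hydroxylase, shows how wide controls could be: it measured 434, 10738, 651 and 8541 CPM in controls and 698, 51.3, 154, 68.7 and 119 in AIH. Controls 2 and 4 were far above controls 1 and 3, AIH 1 overlapped them, and -4.54 did not pass (adjusted p = 0.102).

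Other mitochondrial lists held lower members in smaller shares, and the difference between the lists was not tested. Of 22 citric acid cycle genes 9 were lower and none higher (median -0.45), with 5 lower under library totals. Dlst, a subunit of oxoglutarate dehydrogenase, measured 222, 278, 219 and 281 CPM and 142, 121, 155, 163 and 159.6 (-0.75 ± 0.15, adjusted p = 0.00281), with no overlap. Suclg1, of succinyl-CoA ligase, fell by 0.66 ± 0.14 (adjusted p = 0.00377). In the list of nuclear-encoded respiratory chain genes 5 of 38 were lower and none higher (median -0.18), and 10 had all AIH livers below all controls. Over all genes 6.08% were lower, and in 6.61% all AIH livers were below all controls. The lower members of the list numbered 2 without control 1, 3 without AIH 1 or AIH 5, 9 without AIH 4 and 1 with library totals. The sums were 7090 to 8653 CPM in controls and 5786 to 7096 in AIH. Among 38 complex I (Nduf) genes 1 was higher and 2 lower (median -0.06), and among 77 mitochondrial ribosomal proteins none was higher and 4 lower (median -0.15). Ndufs1, the largest complex I subunit, was one of the lower genes: 185, 174, 172 and 156 CPM in controls and 106, 87.9, 103, 126.01 and 120.3 in AIH (-0.66 ± 0.13, adjusted p = 0.00225).

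Further falls in mitochondrial genes lay outside these pathways. Vwa8, a mitochondrial ATPase (chromosome 14, 78849052 to 79202310), measured 223, 371, 288 and 276 CPM in controls 1 to 4 and 111, 48.2, 69.1, 99.4 and 77.1 in AIH 1 to 5. The highest AIH value was under the lowest control value by a wide gap (-1.84 ± 0.23, adjusted p = 7.22e-05). Mtx3, a metaxin of the outer mitochondrial membrane, measured 18.9, 16.3, 19.4 and 23.1 CPM and 7.35, 4.23, 3.85, 4.98 and 10.4 (-1.65 ± 0.25, adjusted p = 0.000387). AIH 5 was nearest the controls. Gfm1, the mitochondrial elongation factor G, measured 110.3, 115, 99.7 and 101 CPM and 58.6, 53.7, 64.2, 64.5 and 64.1 (-0.80 ± 0.13, adjusted p = 0.000788). Both groups were tight and apart.

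**Figure D3:**
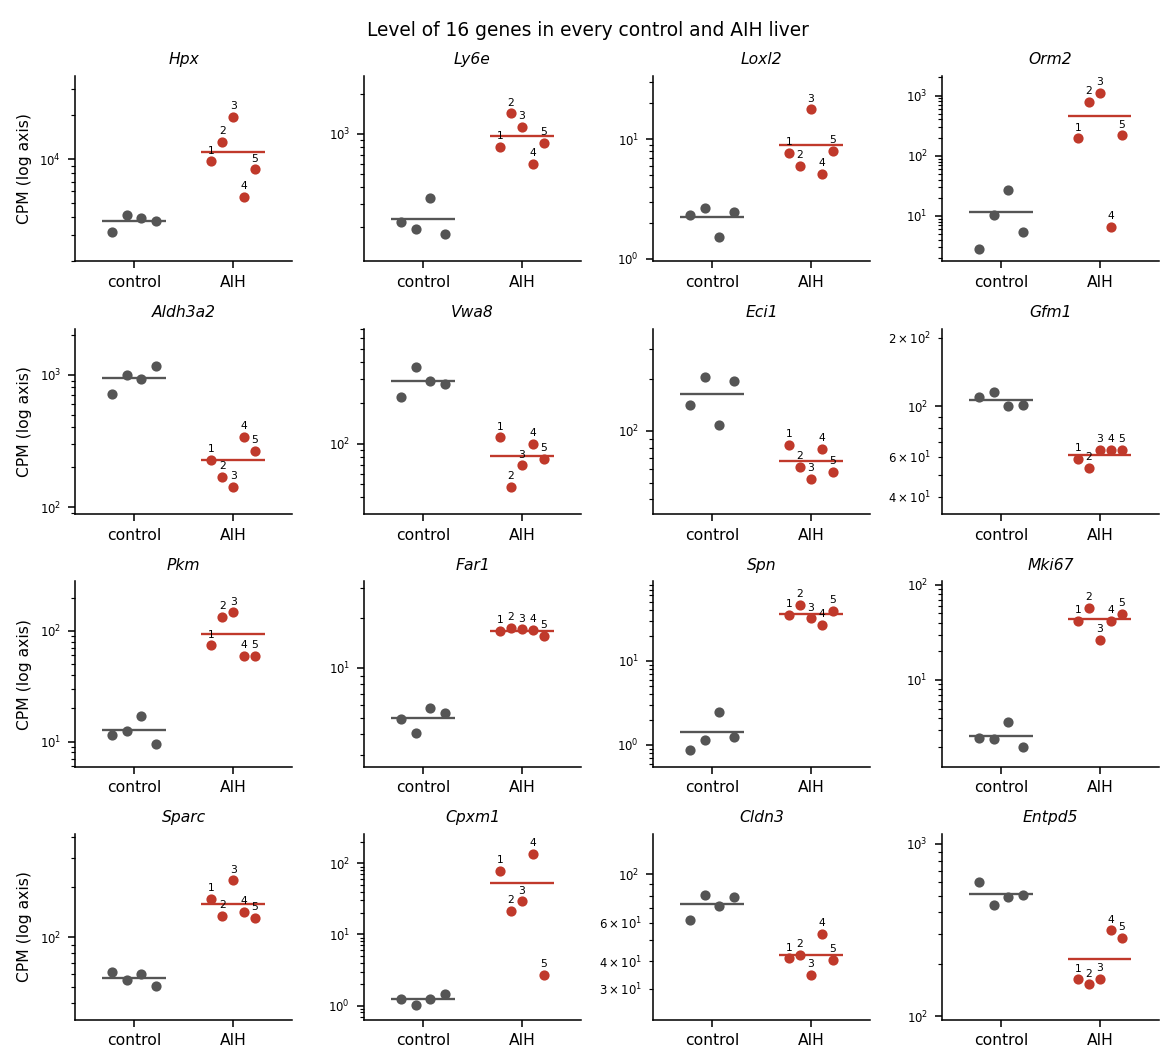
CPM of 16 genes on log axes in each control liver (grey) and each AIH liver (red, numbered 1 to 5), with lines at the group means. Far1 and Gfm1 show narrow groups, whereas Orm2 and Cpxm1 spread widely over the AIH livers, with AIH 4 at 6.55 CPM of Orm2 and 135 CPM of Cpxm1.

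Fat handling changed in both directions. Fabp1, the main fatty acid binding protein of hepatocytes, measured 4352, 4688, 3447 and 3927 CPM in controls 1 to 4 and 2084, 2445, 1833, 3067 and 1337 in AIH 1 to 5. AIH 4 was closest to the controls and did not reach them (-0.93 ± 0.23, adjusted p = 0.0106). Slc27a2, a very long-chain acyl-CoA synthetase that also takes up fatty acids, measured 1362, 2297, 1303 and 2225 CPM and 818, 483, 665, 952 and 526 (-1.38 ± 0.27, adjusted p = 0.00198). Mttp, which loads fat onto apolipoprotein B, measured 530, 607, 331 and 557 CPM and 236, 123, 246, 283 and 169 (-1.26 ± 0.25, adjusted p = 0.00225). In all 3 genes the groups did not overlap.

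G0s2, an inhibitor of fat breakdown, measured 106, 136, 74.5 and 152 CPM and 39.7, 23.9, 48.4, 17.4 and 6.87 (-2.10 ± 0.45, adjusted p = 0.00434). Abhd6, a monoacylglycerol hydrolase, fell by 1.44 ± 0.23 (adjusted p = 0.00063), from 33.9 to 62.4 CPM in controls to 11.5 to 25.3 in AIH. Lpl, the lipase of blood lipoproteins and scarce in adult hepatocytes, went the other way: 23.4, 25.4, 42.0 and 29.3 CPM in controls and 62.3, 249.5, 238, 79.4 and 140.4 in AIH (2.36 ± 0.38, adjusted p = 0.000642). Fabp4, the fatty acid binding protein of macrophages, endothelium and fat cells, measured 6.78, 5.99, 6.21 and 8.32 CPM and 34.2, 80.7, 148, 12.6 and 27.8 (3.15 ± 0.56, adjusted p = 0.00121; 2.50 without AIH 3). Both were higher in every AIH liver than in any control, and the fat cell genes Adipoq and Plin1 had no count in AIH.

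Bile acid genes fell in part. Of 22 members 8 were lower and none higher, with a median of -0.73 (-0.99 in females, -0.46 in males). Slc10a1, the sodium-dependent bile acid importer (chromosome 12, 80953183 to 80968705), measured 811, 839, 790.1 and 560.2 CPM in controls 1 to 4 and 489.9, 304, 344, 397 and 525 in AIH 1 to 5. Control 4 and AIH 5 nearly met (-0.86 ± 0.20, adjusted p = 0.00631). Slc22a3, an organic cation transporter, fell by 1.52 ± 0.34 (adjusted p = 0.00575), from 5.34 to 6.76 CPM in controls to 0.923 to 3.18 in AIH. Cyp3a25, a drug-metabolizing cytochrome with close copies, fell by 1.19 ± 0.24 (adjusted p = 0.00267). Among glucuronosyltransferases 7 of 18 were lower and 1 higher.

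Among other hepatocyte products Rbp4 and Igfbp2 were lower. Rbp4, the plasma carrier of retinol, measured 2792, 3274, 2582 and 3165 CPM and 2276, 2083, 1941, 2073 and 1473. The gap between control 3 and AIH 1 was small (-0.58 ± 0.15, adjusted p = 0.0142), and with library totals the adjusted p was 0.0734. Igfbp2, a binding protein of insulin-like growth factors, measured 329, 486, 388 and 301 CPM and 166, 128, 201, 249 and 90.7 (-1.17 ± 0.24, adjusted p = 0.00335). Igfbp7, a related protein of endothelium, rose in contrast from 61.1 to 67.0 CPM in controls to 85.0 to 163 in AIH (0.81 ± 0.17, adjusted p = 0.0033). Of 12 urea cycle and glutamine genes (median -0.35) 1 was lower: Slc25a13, the mitochondrial aspartate exchanger citrin, with 381, 373, 344 and 388 CPM in controls and 244, 141, 241, 204 and 205 in AIH (-0.84 ± 0.19, adjusted p = 0.00585). Cps1, which fixes ammonia, measured 4797, 4138, 4361 and 3516 CPM and 3289, 1380, 2376, 3828 and 5249. AIH 5 was above all controls and AIH 2 far below (-0.38 ± 0.31, adjusted p = 0.413).

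Several lists had no member past the threshold, although members varied. None of 21 cholesterol synthesis and uptake genes passed (median 0.09), and none of 26 ribosome assembly and polymerase I genes (median -0.05). The families of major urinary proteins (17), carboxylesterases (14), apolipoproteins (13) and chaperonin and prefoldin subunits (14) had no member past it either. In the 31 male-biased liver genes none passed with the groups as they are; without AIH 4, the male, 18 were lower, and with sex as a term 7 were higher and 1 lower. In the 33 female-biased genes none passed either, but 10 were lower once sex was a term, 12 with sex as a term in the 9 libraries and 5 within females. The sexes are unequal in the groups, and their part in these counts was not tested further.

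**Figure D4:**
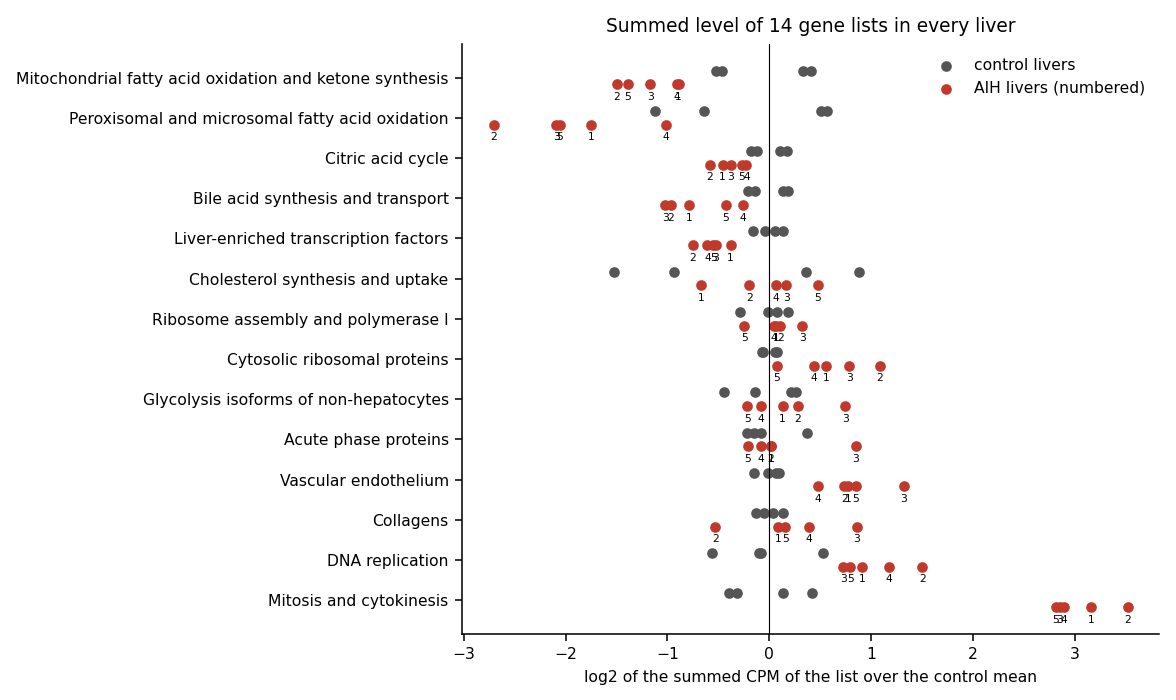
Summed CPM of 14 lists in each control liver (grey) and each AIH liver (red, numbered), as log2 over the control mean. The mitosis sums (23.2 to 40.9 CPM in controls, 214.8 to 349.4 in AIH) are far apart, while the peroxisomal sums of controls (9949 to 32010 CPM) spread into the AIH range (3332 to 10760).

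Most cytosolic ribosomal protein genes were higher. Of 48 listed members 32 were higher and none lower (median 0.66, 0.70 in females and 0.45 in males), with sums of 3528 to 3920 CPM in controls and 3907 to 7882 in AIH. AIH 5 had 3907 CPM, under the highest control. The count fell to 18, 19, 16 and 16 without controls 1, 2, 3 and 4, to 18 and 20 without AIH 2 and 3, and it was 41 with library totals. It was 21 with sex as a term, 8 with sex as a term in the 9 libraries, and no member passed within either sex. Rps4x, of the small subunit, measured 75.6, 78.1, 74.8 and 64.5 CPM in controls 1 to 4 and 125, 156, 145, 114 and 95.5 in AIH 1 to 5 (0.79 ± 0.15, adjusted p = 0.00198), with no overlap. Rpl3, of the large subunit, measured 71.3, 74.3, 80.2 and 48.3 CPM and 128, 156, 149.7, 111 and 103 (0.92 ± 0.18, adjusted p = 0.00225), again with no overlap. Ribosomal protein genes have many processed copies in the genome, which may take part of their reads. Of 33 proteasome genes 2 were higher and 2 lower. Psmb8, the interferon-induced catalytic subunit, rose by 1.69 ± 0.38 (adjusted p = 0.00539), and Psmd1, of the regulatory cap, fell by 0.61 ± 0.16 (adjusted p = 0.0114), a call that ended with library totals (0.0573) and with sex as a term in the 9 libraries (0.0564).

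Of 23 genes in the list of glycolysis isoforms of other cells than hepatocytes, 9 were higher and none lower (median 0.68, 0.75 in females and 0.28 in males). The list summed to 1575 to 2566 CPM in controls and 1842 to 3588 in AIH, with overlap. Pkm, the muscle and leukocyte pyruvate kinase (chromosome 9, 59656368 to 59679375), measured 11.4, 12.6, 17.0 and 9.44 CPM in controls 1 to 4 and 73.9, 133, 147, 59.6 and 59.4 in AIH 1 to 5. The groups were widely apart (2.91 ± 0.31, adjusted p = 2.4e-05). Pfkp, the platelet phosphofructokinase, measured 2.86, 3.05, 3.54 and 3.8 CPM and 14.7, 13.8, 19.3, 15.3 and 8.84 (2.12 ± 0.26, adjusted p = 6.85e-05). Hk1, the hexokinase of blood cells and brain, rose by 1.80 ± 0.25 (adjusted p = 0.00021), and G6pdx, which feeds the pentose phosphate pathway, by 1.91 ± 0.27 (adjusted p = 0.000199). Pcx, pyruvate carboxylase of gluconeogenesis, fell from 563 to 883 CPM to 311 to 449 (-0.82 ± 0.19, adjusted p = 0.0072). Psat1, of serine synthesis, measured 0.877, 0.961, 0.327 and 1.01 CPM in controls and 9.8, 7.39, 6.47, 8.95 and 2.58 in AIH (3.14 ± 0.47, adjusted p = 0.000345). Mthfd2, the mitochondrial folate dehydrogenase, measured 1.05, 0.904, 0.327 and 1.17 CPM and 4.85, 11.8, 2.68, 6.6 and 4.9996 (2.83 ± 0.58, adjusted p = 0.00296).

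The superoxide dismutases parted. Sod3, secreted into the matrix, measured 27.5, 39.5, 30.3 and 26.9 CPM in controls 1 to 4 and 77.6, 106, 102, 52.0 and 67.1 in AIH 1 to 5 (1.39 ± 0.22, adjusted p = 0.000505). Sod2, in mitochondria, measured 232, 174, 201 and 196 CPM and 125.8, 137, 85.6, 156 and 130.2 (-0.66 ± 0.16, adjusted p = 0.00932), and with library totals its adjusted p was 0.0708. Neither gene had overlapping groups. Of 18 heat shock and chaperone genes 2 were higher and none lower, against 15.6% and 6.08% over all genes. The median of the list was -0.22, and in 3 members all AIH livers were below all controls, against 6.61% of all genes. Serpinh1, the collagen chaperone, rose by 1.75 ± 0.38 (adjusted p = 0.00433), and Cryab, a small heat shock protein, by 0.88 ± 0.21 (adjusted p = 0.00863).

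Matrix genes rose in part of each class. Of 22 collagens 12 were higher and none lower, and 6, 7 and 7 were higher without control 3, control 4 and AIH 3. Among 33 matrix glycoproteins 14 were higher, and among 27 proteases and crosslinkers 15 (median 1.80). Sparc, a collagen-binding glycoprotein (chromosome 11, 55394500 to 55423183), measured 61.3, 54.8, 59.8 and 50.8 CPM in controls 1 to 4 and 169, 134, 220.2, 142 and 130.2 in AIH 1 to 5. Controls were nearly level and AIH 3 was highest (1.49 ± 0.16, adjusted p = 2.84e-05). Col5a2, a chain of fibrillar collagen V, measured 2.69, 1.58, 4.79 and 2.46 CPM and 21.3, 17.8, 24.8, 16.1 and 16.8 (2.75 ± 0.36, adjusted p = 0.00011). Col1a1, of collagen I, measured 7.31, 4.41, 5.5 and 6.09 CPM and 49.0, 17.4, 82.7, 45.2 and 20.4 (2.88 ± 0.50, adjusted p = 0.00101). Neither collagen had overlapping groups, and Col1a1 spread more over the AIH livers than Col5a2.

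Mmp9, the gelatinase of neutrophils and macrophages, measured 0.585, 0.735, 1.25 and 0.95 CPM and 8.45, 21.9, 23.7, 2.8 and 4.44 (3.78 ± 0.64, adjusted p = 0.000808). Loxl2, which crosslinks collagen, rose by 1.99 ± 0.36 (adjusted p = 0.00137), with AIH 3 at 17.8 CPM and the other AIH livers at 5.15 to 7.98. Cpxm1, a secreted carboxypeptidase-like protein, measured 1.23, 1.02, 1.25 and 1.45 CPM and 77.5, 21.3, 29.1, 135 and 2.68. AIH 4 was highest here and AIH 5 close to the controls (5.41 ± 1.01, adjusted p = 0.00162; 4.72 without AIH 4). Ltbp2, a microfibril protein, also peaked in AIH 4 with 18.7 CPM against 0.391 to 0.818 in controls (3.60 ± 0.72, adjusted p = 0.00266; 2.81 without AIH 4). AIH 4 thus held the highest level of these 2 genes.

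In the stellate and contractile list 11 of 26 members were higher and 1 was lower. Cnn2, a calponin of motile cells, measured 4.56, 4.13, 6.59 and 5.25 CPM and 32.9, 47.9, 39.4, 34.9 and 22.4 (2.79 ± 0.24, adjusted p = 1.01e-05). Tpm2, a tropomyosin of contractile cells, was the exception: 7.77, 6.67, 14.7 and 6.59 CPM in controls and 2.06, 3.11, 2.45, 3.3 and 1.57 in AIH (-1.83 ± 0.44, adjusted p = 0.00831). No AIH liver overlapped a control in Cnn2 or Tpm2. Tgfb1, the growth factor that activates stellate cells, rose from 7.93 to 11.4 CPM to 19.4 to 39.0 (1.44 ± 0.24, adjusted p = 0.000722). Of the markers chosen for stellate cells and fibroblasts only Col1a1, given above, passed. Lrat (0.66), Reln (-0.37), Pdgfra (0.38), Pdgfrb (0.74) and Acta2 (1.51) did not, with adjusted p from 0.0782 for Acta2 to 0.617 for Pdgfra.

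In the list of vascular endothelium 10 of 22 members were higher and none lower, and in the sinusoidal list none of 21 was higher and 1 lower. The difference between the lists was not tested. Vcam1, the adhesion molecule that leukocytes bind, measured 33.9, 43.0, 21.7 and 22.3 CPM in controls 1 to 4 and 169, 101, 294, 78.0 and 130.3 in AIH 1 to 5 (2.35 ± 0.42, adjusted p = 0.0012). Cd34, of capillary endothelium and progenitors, measured 1.75, 1.98, 1.74 and 2.12 CPM and 8.02, 8.94, 24.9, 6.88 and 5.5 (2.51 ± 0.45, adjusted p = 0.00121), with AIH 3 apart. Plvap, of the diaphragms of fenestrated endothelium, measured 42.3, 45.6, 39.6 and 37.6 CPM and 118, 104, 62.4, 60.3 and 70.3 (1.01 ± 0.21, adjusted p = 0.00329). Vwf, a clotting glycoprotein of endothelium, rose by 1.51 ± 0.40 (adjusted p = 0.0139), and the call ended with sex as a term (adjusted p = 0.0609).

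Junction and receptor genes fell in some members, with 5 of 23 junction genes lower and 1 higher. Only 2 were lower without control 2, without AIH 2 or with library totals, and 3 without control 3, control 4 or AIH 1. Cldn3, a tight junction claudin, measured 61.5, 80.3, 71.6 and 79.1 CPM in controls 1 to 4 and 41.3, 42.9, 34.7, 53.6 and 40.6 in AIH 1 to 5 (-0.78 ± 0.15, adjusted p = 0.0022). Cldn12, of the same family, measured 130.0, 119, 116 and 125 CPM and 80.9, 52.9, 63.2, 99.8 and 83.3 (-0.69 ± 0.16, adjusted p = 0.00756). Neither claudin had overlapping groups. Fzd4, a Wnt receptor, fell by 0.91 ± 0.23 (adjusted p = 0.0112). Met, the receptor of hepatocyte growth factor, fell by 0.88 ± 0.23 (adjusted p = 0.0128), and with library totals its adjusted p was 0.0553.

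Lipid mediator genes rose in most tested members, while their summed level did not rise. Of 21 genes of the prostaglandin and leukotriene pathway 13 were higher and 2 lower (median 1.65). Over all genes 15.6% were higher and 6.08% lower. The list summed to 1300 to 2861 CPM in controls and to 915.9 to 1518 in AIH, with overlap. Tbxas1, thromboxane synthase, measured 3.39, 3.45, 5.45 and 1.9 CPM in controls 1 to 4 and 10.8, 30.0, 18.6, 7.27 and 15.4 in AIH 1 to 5 (2.21 ± 0.39, adjusted p = 0.0012). Alox5ap, which presents arachidonate to 5-lipoxygenase, measured 1.52, 3.28, 2.72 and 3.97 CPM and 12.3, 28.5, 55.9, 4.36 and 10.5 (2.95 ± 0.59, adjusted p = 0.00256; 2.27 without AIH 3), and with sex as a term in the 9 libraries its adjusted p was 0.0628. Ptger4, a receptor of prostaglandin E, measured 0.292, 0.791, 0.872 and 0.335 CPM and 4.08, 4.62, 2.68, 3.58 and 3.64 (2.68 ± 0.45, adjusted p = 0.000772). The 3 genes had no overlap, and AIH 4 was just above control 4 for Alox5ap.

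Among purine and nucleotide genes 9 of 17 were higher and 2 lower. Their summed level was lower in every AIH liver (428.2 to 590.7 CPM) than in any control (684 to 799.5), and Entpd5, one of the lower genes, made up most of it in controls. Entpd1 (CD39), which removes extracellular ATP, measured 10.99, 11.4, 15.2 and 8.77 CPM and 25.6, 36.2, 40.7, 21.2 and 30.6 (1.41 ± 0.23, adjusted p = 0.000677). Entpd5, a nucleotidase of the hepatocyte endoplasmic reticulum, fell: 599, 444, 492 and 502 CPM in controls and 163, 153, 164, 314 and 283 in AIH (-1.24 ± 0.28, adjusted p = 0.00578). P2ry10, a lysophospholipid receptor of lymphocytes, measured 0.585, 0.622, 0.381 and 0.838 CPM and 14.4, 8.16, 5.3, 13.3 and 6.41 (3.96 ± 0.58, adjusted p = 0.00026). P2ry1, a receptor of ADP, fell from 11.02 to 16.6 CPM to 6.999 to 9.65 (-0.72 ± 0.16, adjusted p = 0.00482), and with sex as a term in the 9 libraries its adjusted p was 0.0576. Adora2a, an adenosine receptor, rose from 1.28 to 2.83 CPM to 3.75 to 8.07 (1.59 ± 0.29, adjusted p = 0.00126). The groups were apart in all 5 genes.

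Of 28 channel genes 13 were higher and 2 lower. Clic1, an intracellular chloride channel protein, measured 13.2, 14.02, 20.4 and 15.4 CPM in controls 1 to 4 and 60.1, 113, 64.4, 48.1 and 45.5 in AIH 1 to 5 (2.07 ± 0.26, adjusted p = 8.62e-05). Kcnn4, the calcium-activated potassium channel of lymphocytes and red cells, measured 0.409, 0.226, 0.817 and 0.279 CPM and 6.29, 12.8, 2.86, 5.71 and 5.35 (3.91 ± 0.60, adjusted p = 0.000388). Orai2, a store-operated calcium channel, rose by 2.38 ± 0.34 (adjusted p = 0.000222). In each of these 3 all AIH livers were above all controls. Asic5, a bile acid-sensitive ion channel, measured 3.57, 31.1, 13.6 and 9.27 CPM and 2.59, 1.75, 0.816, 2.46 and 2.02. Control 1 was near AIH 1 and control 2 far above (-2.89 ± 0.62, adjusted p = 0.00423; -2.21 without control 2).

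Spn, Fmnl1, Napsa and Lbh were among the rises with the smallest p-values, as was Kif23 above. Spn (CD43), the main sialoglycoprotein of leukocytes (chromosome 7, 127132232 to 127137823), measured 0.877, 1.13, 2.45 and 1.23 CPM in controls 1 to 4 and 35.4, 46.4, 31.995, 26.7 and 39.2 in AIH 1 to 5. The AIH livers lay within a narrow band far above controls (4.65 ± 0.33, adjusted p = 4.91e-06). Fmnl1, a formin of leukocytes, measured 2.22, 2.15, 4.03 and 1.9 CPM and 25.9, 32.1, 25.4, 21.9 and 24.6 (3.33 ± 0.23, adjusted p = 4.91e-06). Napsa, an aspartic protease, measured 0.409, 0.339, 0.763 and 0.335 CPM and 26.0, 26.6, 27.7, 14.1 and 11.2 (5.49 ± 0.45, adjusted p = 8.77e-06). Lbh, a transcription cofactor, measured 15.02, 13.3, 12.4 and 14.2 CPM and 49.99, 55.8, 56.8, 51.6 and 36.3 (1.86 ± 0.16, adjusted p = 8.77e-06). For all of these the groups were apart.

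Some genes changed by nearly the same amount in every AIH liver. Far1, which makes fatty alcohols for ether lipids (chromosome 7, 113513834 to 113571511), measured 4.91, 4.07, 5.72 and 5.36 CPM in controls 1 to 4 and 16.7, 17.4, 17.0, 17.0 and 15.5 in AIH 1 to 5. The AIH values differed little from each other (1.74 ± 0.16, adjusted p = 1.34e-05). Runx1, a blood cell transcription factor, measured 1.46, 0.848, 2.12 and 0.391 CPM and 6.96, 6.08, 7.17, 6.83 and 7.47, here with controls wider than AIH (2.51 ± 0.40, adjusted p = 0.000494). Atad5, which unloads the replication clamp, measured 0.994, 1.41, 1.85 and 1.56 CPM and 4.13, 4.42, 4.37, 4.81 and 4.29 (1.59 ± 0.27, adjusted p = 0.000949). Among falls, Plekha8, which carries glycolipids between membranes, measured 48.5, 34.8, 38.2 and 35.4 CPM and 15.8, 14.9, 20.5, 17.4 and 15.7 (-1.22 ± 0.17, adjusted p = 0.000165). The next 2 genes, Gna11 and Wwc1, fell by less than 2-fold and were not picked for narrow AIH values. Gna11, a G protein subunit, fell by 0.76 ± 0.13 (adjusted p = 0.00089). It was narrow in controls (63.2 to 67.7 CPM) and wider in AIH (31.2 to 47.7). Wwc1 (Kibra), a scaffold of Hippo signalling, fell by 0.94 ± 0.15 (adjusted p = 0.000702).

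Other rises were widest in AIH 3. H19, an imprinted fetal RNA (chromosome 7, 142575529 to 142578143), measured 0.0585, 0.509, 0.545 and 0.112 CPM in controls 1 to 4 and 0.672, 2.48, 75.9, 0.28 and 1.67 in AIH 1 to 5. AIH 3 stood alone and AIH 4 lay within the controls (5.68 ± 1.59, adjusted p = 0.0201). The call ended without control 1 (adjusted p = 0.0589) or control 4 (0.0591), with sex as a term (0.0719), with the Dbp to Arntl ratio as a term (0.059), with the 9 libraries alone (0.0546) and in limma-voom, where the fold was 2.28 (adjusted p = 0.185). Without AIH 3, the library that stood alone, H19 did not pass the low-count filter, so no fold change was obtained. Ddit4, a stress-induced brake on mTORC1, measured 7.31, 10.3, 6.59 and 6.82 CPM and 33.0, 34.9, 194, 19.9 and 54.1 (3.11 ± 0.62, adjusted p = 0.00245; 2.195 without AIH 3). Btg2, an antiproliferative early response gene, measured 8.77, 12.9, 14.7 and 10.1 CPM and 45.0, 68.1, 221, 30.2 and 46.1 (2.82 ± 0.57, adjusted p = 0.00292; 2.02 without AIH 3). Both remained apart from controls in the 4 other AIH livers.

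Because the groups differ in sex, each contrast was also run within a sex. In females (4 AIH against 2 controls) 730 genes were higher and 109 lower, and in males (1 AIH against 2 controls, with the spread taken from the other males) 542 were higher and 13 lower. With sex as a term in the 9 libraries the calls of C1rl, Rbp4, Sod2, Vwf and H19 ended too (adjusted p from 0.0561 for C1rl to 0.137 for H19). The medians of 59 of the 67 lists had the same sign in females and males. Of the 38 lists with a median above 0 in all libraries, 36 were above 0 in both sexes, and of the 29 below 0, 22 were below in both. Red cell precursor genes differed in sign, with a median of 2.26 in females and -0.49 in males. With a single male AIH liver, a difference between the sexes cannot be told apart from that animal.

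**Figure D5:**
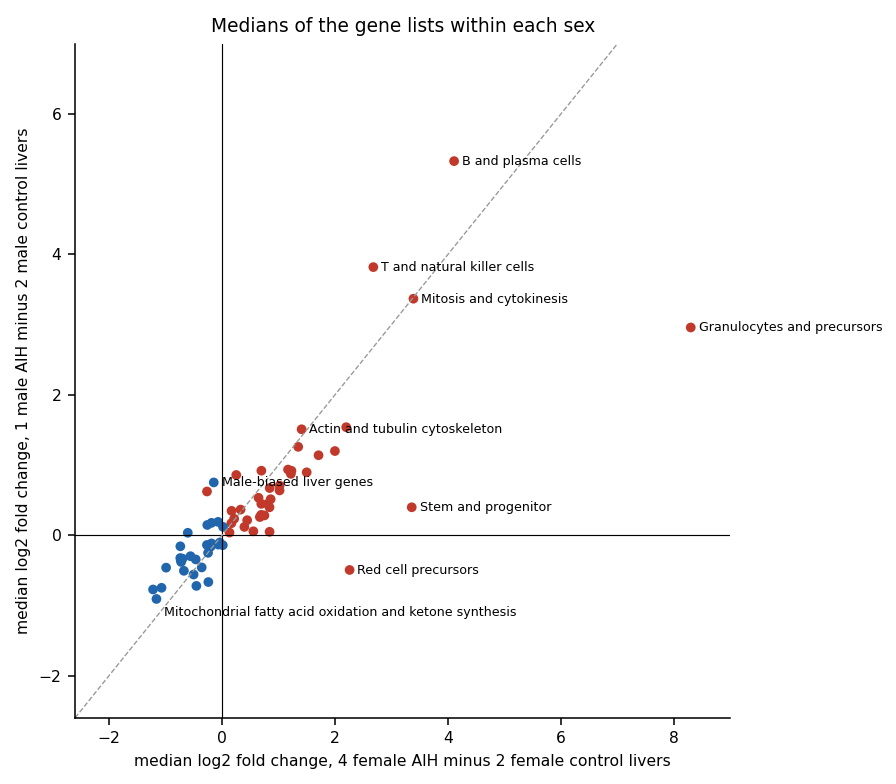
Median log2 fold change of each of the 67 lists within females (horizontal axis) and within males (vertical axis), coloured by the sign of the median over all libraries, with the line of equal medians dashed. Mitosis lies on the line (3.39 and 3.37), and red cell precursors lie to the lower right of it (2.26 and -0.49).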

How the data were processed

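RNA of a piece of left liver lobe was sequenced. The authors deposited 1 file per library with raw read counts for each Ensembl gene and no normalization. The submitters' processing notes list, without roles, R 4.0, edgeR, HTSeq 0.9.0, HISAT2 2.1.0, cutadapt 1.12 and FastQC 0.11.5. They name a human and a mouse build (GRCh38, GRCm38), and the mouse gene IDs were placed on GRCm38. The sources used here give neither the annotation release nor the strand setting or read layout.

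HTSeq summary rows were dropped; in the 9 libraries they held 28.8% to 33.5% of reads as not uniquely aligned and 3.23% to 6.54% as not aligned. Genes were filtered with filterByExpr, scaled by TMM and tested in edgeR 4.0.16 (R 4.3.3) with its quasi-likelihood F-test, two-sided. All 14 libraries entered 1 fit with group means. Benjamini-Hochberg adjustment covered all 14638 genes. Fold changes are log2, AIH minus control, with SE from the F statistic. The scripts were tested on simulated counts.

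The comparison, lists, families, motifs and alternatives were chosen with earlier results of these data known. Named genes are Tet2 and genes without overlap between groups that had the largest gains, losses or folds or the smallest p. List members with the smallest p were also taken among genes without overlap. Members against their list and genes with the widest or narrowest AIH values were taken without that condition. For most named genes the lack of overlap was thus set by the choice and is no support. Which of the genes are named was settled with their values in view. Cyp4a14 and Cps1 are given as known members that did not pass. Replicate numbers follow accession order. Sex was read from Xist and Y-linked counts. P-values measure the spread between these libraries, which may be partly technical.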

Additional observations from a re-analysis of the deposited data

Results flagged for a closer look

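A library was singled out where its gap to the nearest other library of its group took up most of the range of that group. Of 250 groups of values looked at, 21 held such a library. Chance gives about 1 in 20 where genes are not picked for their spread; some of these were, so the count is not read against that rate. AIH 3 had 9 of them and AIH 2 had 6. AIH 3 was highest in its group for Vwf (65.39 CPM), Pcolce (45.05), which processes procollagen, Loxl2 (17.78), Cd34 (24.89), Orai2 (7.576), H19 (75.94), Prg2 (969.7), a granule protein of eosinophils, Ddit4 (193.8) and Btg2 (220.9). Without AIH 3 the log2 fold change of Prg2 was 5.42 in place of 9.77. AIH 2 was highest for Tmsb4x (1619 CPM), C1qa (602.4), Psmb8 (179.9), Acvrl1 (22.94), a receptor of bone morphogenetic proteins, P2ry6 (9.283), a receptor of UDP, and Clic1 (112.9). AIH 1 was highest for Cyp4a14 (698.3 CPM). In AIH 4, 6.537% of reads were not aligned, the highest share among AIH libraries.

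Among controls, control 3 was highest for Tpm2 (14.65 CPM) and Fmnl1 (4.031). Control 1 was lowest for Orai2 (0.4676 CPM) and highest for Cul4a (171.0), a ubiquitin ligase scaffold that fell by 0.77 ± 0.13 in AIH (adjusted p = 0.000882).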

How the results depend on the processing

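The main fit gave 3174 genes. With sex as a term and only the 9 libraries 2056 passed, 839 within females and 555 within males. Within females 730 were higher and 109 lower, and within males 542 and 13. Lower genes numbered 304 with library totals, 409 with sex and the 9 libraries, and 520 to 1126 with 1 library left out. Called list members (591) numbered 207 in females, 117 in males and 469 to 665 with 1 library left out. Called family members (459) numbered 305 with sex and the 9 libraries, 162 in females, 81 in males and 348 to 537 with 1 library left out. The cause of these moves was not tested. Tet2, not called, was at 0.1027 with library totals and -0.2116 to 0.08157 with 1 library left out. No paired analysis was possible because replicate numbers only follow accession order. At these group sizes small changes of scarce genes may be missed, and the size that could be detected was not tested.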

Other observations

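Gene groups not described above also moved in part. All 11 Ms4a genes tested were higher, a family of membrane proteins of B cells, mast cells and macrophages, with a median log2 fold change of 3.00. Over all genes 15.6% were higher. The 19 members found summed to 15.6 to 21.4 CPM in controls, where 7 had no count. Scarce members could pass the low-count filter only through libraries where they are high, so the count of 11 is partly set by it. Of 12 Rgs genes, which end G protein signals, 8 were higher (median 2.35), and of 6 Schlafens, an interferon-linked family, 5 (median 2.60). Of 27 integrins 11 were higher and none lower, and of 21 Adam and Adamts proteases 9. The 11 laminins, of basement membranes, had 1 lower and none higher. Of 29 cell death genes 14 were higher, with 9 without control 2 and 8 without control 4. Pycard, the inflammasome adaptor ASC, measured 1.4, 1.53, 2.23 and 0.95 CPM in controls 1 to 4 and 20.0, 40.5, 9.15, 8.28 and 14.8 in AIH 1 to 5, without overlap (3.59 ± 0.48, adjusted p = 0.000144). Of 27 immediate early genes 12 were higher, and 7 without control 4. Dusp2, a phosphatase that ends MAP kinase signals in leukocytes, measured 0.526, 0.283, 0.436 and 0.223 CPM and 3.65, 6.999, 3.21, 4.14 and 4.6, again without overlap (3.60 ± 0.35, adjusted p = 1.61e-05).

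Glycan genes had 7 of 22 members higher and 1 lower, with a median of 0.39. Gcnt1, which starts core 2 branches on O-glycans, measured 1.34, 1.07, 1.36 and 0.894 CPM and 4.9, 14.1, 9.5, 5.2 and 8.48 (2.84 ± 0.39, adjusted p = 0.000178), with AIH 2 highest. Cd24a, a glycoprotein of immature blood cells and bile duct cells, measured 2.4, 3.73, 3.49 and 5.08 CPM and 34.3, 117, 75.4, 24.3 and 44.4, without overlap (4.00 ± 0.51, adjusted p = 9.78e-05). Bile duct markers Krt19 and Krt7 averaged 0.691 and 0.664 CPM in controls and 1.59 and 1.17 in AIH, and neither passed the test (adjusted p = 0.291 and 0.207). Epcam (0.61, adjusted p = 0.515) and Sox9 (-0.42, adjusted p = 0.479) did not pass either. Spp1, also on the marker list, was higher (2.18, adjusted p = 0.0436), with 46.5 to 70.4 CPM in controls and 74.1 to 880.8 in AIH. Of 29 liver-enriched transcription factors 7 were lower and none higher, with 3 lower without AIH 2 and 1 with library totals. Hlf, a clock-driven factor of hepatocytes, measured 97.1, 76.9, 93.7 and 84.7 CPM and 62.2, 34.0, 68.2, 26.3 and 36.0 (-0.96 ± 0.24, adjusted p = 0.0119). Adtrp, which hydrolyses branched lipid esters, measured 134, 207, 171 and 169.8 CPM and 86.7, 67.6, 49.6, 96.7 and 65.5 (-1.22 ± 0.19, adjusted p = 0.000487). Neither had overlapping groups.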
